A study of Mus musculus with 24 samples.

Results

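The comparison described here set CHREBP against BMAL1, AML-12 cells in which *Chrebp* or *Bmal1* was silenced at the same dose of esiRNA, and used the 8 libraries of these groups, 4 in each, of the 24 libraries of the study. AML-12 is an established line of mouse hepatocytes, and all cells of both groups were kept in 0.25 mM palmitate, a saturated fatty acid that makes hepatocytes store fat. Both groups then received 100 nM of an esiRNA, a pool of short interfering RNAs cut from a long double strand, against *Bmal1* in BMAL1 and against *Chrebp* in CHREBP. CON, with 200 nM of an esiRNA against *Egfp*, and BOTH, with the 2 silencing esiRNAs at 200 nM in total, were used as values only, because their dose was not that of the groups compared. PAL cells had palmitate and no esiRNA. The labels put the BMAL1 libraries in column 2, rows E to H, and the CHREBP libraries in column 3, rows A to D, and the 2 esiRNAs also differ in sequence, so the targeted gene, the esiRNA sequence and the library position cannot be told apart. RNA was measured by BRB-seq, which counts the 3′ ends of transcripts in barcoded and pooled samples.

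*Bmal1* is the core activator of the circadian clock and drives a daily rhythm of many liver genes. *Chrebp* is a transcription factor activated by sugar metabolites that switches on glycolytic and lipogenic genes of the hepatocyte. Most of the large differences below were in genes of the type I interferon system, in which sensors of foreign RNA or DNA induce interferon genes, secreted interferon acts through its receptor on STAT and IRF factors, and these induce a large set of antiviral genes.

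The total gene count ran from 5570803 to 8167434 in BMAL1 and from 6923225 to 8987732 in CHREBP, and 14496 to 15338 genes were detected per library. Total count (exact permutation p = 0.4), genes detected (exact permutation p = 0.514) and the share of reads not aligned (26.6% to 27.4% in BMAL1 and 25.8% to 26.7% in CHREBP, exact permutation p = 0.0571) were each compared in a 2-sided test, and no adjusted p over the 3 tests was under 0.171. With 4 libraries against 4, no such p can be below 0.0286. Of 8 hepatocyte markers all were detected, with a summed normalized count of 51443 to 52690 in BMAL1 and 50381 to 56790 in CHREBP, most of it from the epithelial keratins *Krt18* and *Krt8*. *Alb* had means of 155 in BMAL1 and 158 in CHREBP and *Apoa1* of 6.1 and 9.49, and *Ttr* was the only one of the 8 that passed the test across all genes. The macrophage markers *Adgre1*, *Clec4f*, *Marco* and *Vsig4*, the lymphocyte markers *Cd3e*, *Cd4* and *Cd8a*, the endothelial markers *Cdh5*, *Kdr*, *Stab2* and *Lyve1* and the stellate cell markers *Lrat*, *Reln* and *Pdgfrb* had no count in any of the 8 libraries. Of the lymphocyte, endothelial and stellate or fibroblast markers 2 of 6, 1 of 5 and 4 of 7 were detected, at sums of at most 1.79, 2.08 and 10.0 normalized counts in a library, the highest mean being that of *Des* (0.666 in BMAL1 and 3.32 in CHREBP), and they were too low to test. The 9 macrophage markers summed to 521 to 642 normalized counts in BMAL1 and 623 to 696 in CHREBP, almost all of it *Cd14*. Only *Cd14* and *Cd68* had enough counts for an adjusted p, and neither passed. The cholangiocyte markers *Krt7*, *Krt19* and *Sox9* were well expressed, and the 4 markers of that type summed to 4768 to 5441 in BMAL1 and 4420 to 5176 in CHREBP.

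The targeted transcripts were examined first. *Arntl*, the symbol of *Bmal1* in the count table (ENSMUSG00000055116, chromosome 7, 113207465 to 113314126, + strand), had normalized counts of 22.6, 21.9, 25.4 and 32.3 in BMAL1 replicates 1 to 4 and 32.5, 42.9, 28.4 and 34.6 in CHREBP. The means were 25.5 ± 4.75 in BMAL1 and 34.6 ± 6.13 in CHREBP (SD, n = 4), and the difference was not called (log2 fold change 0.43, SE 0.30, DESeq2 *Padj* = 0.645). One BMAL1 library lay within the CHREBP range, so the groups overlapped, and the exact permutation test of the 2 groups gave p = 0.0571. *Mlxipl*, the symbol of *Chrebp* (ENSMUSG00000005373, chromosome 5, 135089890 to 135138382, + strand), had normalized counts of 46.6, 30.2, 27.2 and 34.1 in BMAL1 replicates 1 to 4 and 22.8, 32.0, 21.7 and 24.9 in CHREBP. The means were 34.5 ± 8.52 in BMAL1 and 25.3 ± 4.63 in CHREBP (SD, n = 4), again with no call (log2 fold change -0.43, SE 0.30, DESeq2 *Padj* = 0.655; exact permutation p = 0.0857) and with overlap. Each targeted transcript was therefore lower on average in the group silenced for it, with ranges that overlapped and without passing either test. In CON, *Arntl* ran from 29.6 to 56.3 and *Mlxipl* from 28.4 to 43.5, and in BOTH they ran from 16.3 to 30.2 and from 11.2 to 21.5. Both genes overlap an annotated gene on the other strand, and with 17 to 51 raw counts per library the precision of these values is low.

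**Figure D1:**
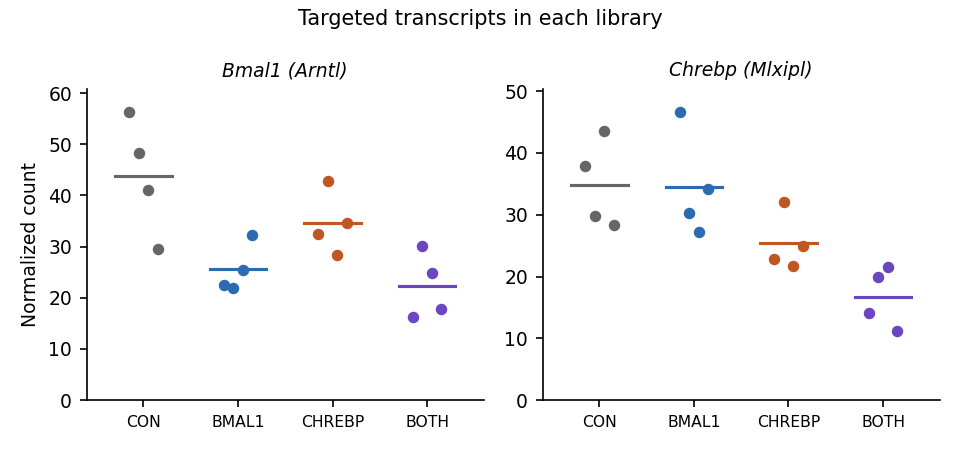
Normalized counts (y axis, from 0) of *Arntl* and *Mlxipl* in the 4 libraries (points) of CON, BMAL1, CHREBP and BOTH, with the mean of each group as a line. *Arntl* averages 25.5 in BMAL1 and 34.6 in CHREBP and *Mlxipl* averages 34.5 and 25.3, with overlap between these groups for both genes.

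Of 12874 genes tested, 422 (3.28%) were higher and 167 (1.30%) lower in CHREBP than in BMAL1 (DESeq2 *Padj* under 0.1), 589 (4.58%) in all. In bulk RNA of this kind, fewer cells of a type and less RNA per cell cannot be told apart. The 589 genes are named called below, and every fold change is that of CHREBP over BMAL1. The 2 directions differed in size. Among the higher genes 178 differed at least 2-fold, 109 at least 4-fold and 52 at least 16-fold, with a median log2 fold change of 0.80. Among the lower genes 8 differed at least 2-fold, all of them at a mean of under 50 normalized counts, and the median was -0.36. The median over all genes tested was -0.01. No overlap between the 2 groups was seen for 382 of the higher genes and 145 of the lower genes, against 663 (5.15%) and 481 (3.74%) of all genes tested in these directions. Leaving out 1 library at a time gave between 327 and 447 higher genes and between 92 and 167 lower genes, and the lower count moved by over 1.5 times without BMAL1 replicates 1, 2 or 3 (106, 104 and 110 genes) or without CHREBP replicate 1 (92 genes). Nothing in the labels says that the 4 libraries of a group came from separate cultures, so the p-values measure the spread between these libraries, which may be technical.

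**Figure D2:**
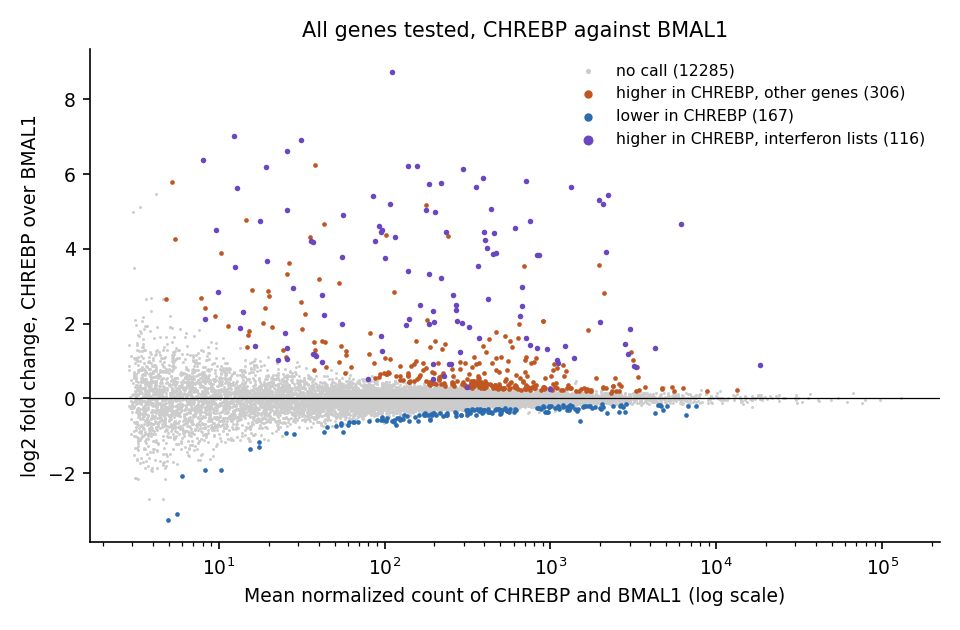
Each point is 1 of the 12874 genes tested, with the mean normalized count of the 2 groups on the x axis (log scale) and the log2 fold change of CHREBP over BMAL1 on the y axis. Called genes are coloured, and the 116 higher members of the interferon lists make up most of the points far above 0 while most of the 167 lower genes lie close to 0.

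Interferon-response genes made up most of the differences of at least 2-fold. The 11 lists that cover this system, from the interferons to their induced effectors, name 171 genes, of which 142 were tested, 116 were higher in CHREBP and 1, *Socs3*, was lower, against 3.28% and 1.30% of all genes, the shares against which the counts of each list below are to be read. Their median log2 fold change was 2.21. Of the 142 genes, 4 had no count in BMAL1 and passed the filter on the summed count only through CHREBP. Others with few counts in BMAL1, such as *Oas3* with 2, did so as well. The shares of these lists therefore include members that were tested because they are high in CHREBP. The lists held 103 of the 178 genes that were at least 2-fold higher. The level of the lists in a library, taken as the mean of log2(normalized count + 1) over the 142 genes, was 5.66, 5.48, 5.54 and 5.79 in BMAL1 and 8.68, 8.13, 7.91 and 7.87 in CHREBP, so the groups were far apart and CHREBP replicate 1 stood above the other CHREBP libraries. In PAL, without esiRNA, the mean level was 4.91, in CON it ran from 5.42 to 6.85 and in BOTH from 8.47 to 9.22. The BMAL1 libraries were within the range of CON, which had 200 nM of esiRNA, and the CHREBP libraries were above it.

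CHREBP replicate 1 was the highest CHREBP library for 109 of the 116 genes (94.0%), for 215 of the 306 other higher genes (70.3%), and for 27.7% of all genes tested. Without it, 107 of 139 tested list genes were higher, with a median log2 fold change of 1.99. Without any other single library, 108 to 114 were higher.

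**Figure D3:**
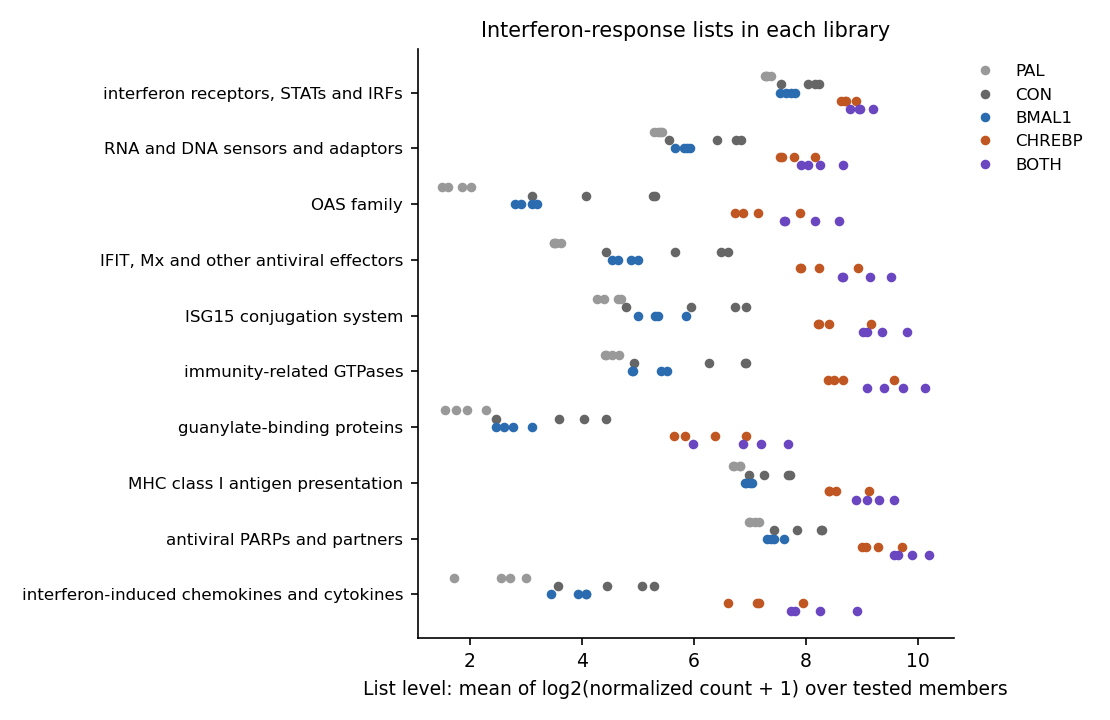
Level of each interferon-response list (x axis, mean of log2(normalized count + 1) over tested members) in each library (points) of PAL, CON, BMAL1, CHREBP and BOTH. In each of the 10 lists drawn, all 4 CHREBP libraries lie above all 4 BMAL1 libraries.

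The interferon genes themselves were at the limit of detection. None of 10 interferon ligand genes reached the summed count of 25 needed for a test, and 4 of them were detected in the 8 libraries. *Ifnb1*, the gene of interferon beta (ENSMUSG00000048806, chromosome 4, 88522025 to 88522774, - strand), had no count in any BMAL1 library and 8, 5, 2 and 2 raw counts in CHREBP replicates 1 to 4. Set against a floor of 3 counts over the BMAL1 group, the ratio of CHREBP to BMAL1 for *Ifnb1* was 5.21. This ratio leaves out the counting error of the 17 counts in CHREBP, so it is not a lower bound. Raw counts were 0, 4, 1 and 0 in CON and 9, 37, 12 and 19 in BOTH. *Ifna4* had 2 counts over the CHREBP group and none in BMAL1, *Ifna5* and *Ifne* had 1 each in CHREBP, and *Ifna1*, *Ifna2*, *Ifng*, *Ifnk*, *Ifnl2* and *Ifnl3* had none in either group.

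Several of the factors on which the interferon receptor acts were higher in CHREBP, while the receptor subunits were not called. The list of receptors, STATs and IRFs had 10 of 22 tested members higher and 1 lower, with a median of 0.21. *Ifnar1* and *Ifnar2*, the subunits of the type I receptor, had log2 fold changes of 0.00 (*Padj* = 0.994) and 0.14 (*Padj* = 0.682), and neither was called. *Irf7*, which amplifies interferon gene induction (ENSMUSG00000025498, chromosome 7, 141262706 to 141266481, - strand), had normalized counts of 63.9, 17.7, 63.8 and 72.6 in BMAL1 replicates 1 to 4 and 2394, 1317, 1050 and 1087 in CHREBP, with no overlap (log2 fold change 4.74, SE 0.49, DESeq2 *Padj* = 3.79e-20). *Usp18*, which removes ISG15 from proteins and blocks the receptor as a feedback inhibitor, had 47.9, 46.8, 49.8 and 62.8 in BMAL1 replicates 1 to 4 and 3833, 2393, 2005 and 2239 in CHREBP, and its log2 fold change was 5.65 (SE 0.26, *Padj* = 2.19e-99). The smaller called differences were in *Stat2* (2.21), *Irf5* (1.74), *Socs1* (1.66), *Irf9* (1.42), *Irf1* (1.04), *Irf2* (0.51) and *Stat3* (0.26), all log2 fold changes, and the call of *Stat3* was lost without BMAL1 replicate 1, 2 or 3, or CHREBP replicate 1 or 2 (0.21 to 0.31), and with all 16 esiRNA libraries in the fit (*Padj* = 0.202). *Socs3*, a feedback inhibitor of STAT3 signalling that was chosen for mention after its value was seen, was lower at -0.32 (SE 0.09, *Padj* = 0.0174), a call that was lost without BMAL1 replicate 1 or 4.

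Sensors of foreign RNA and DNA and their adaptors were higher in most cases, with 14 of 18 tested members higher, none lower and a median of 1.73. *Zbp1*, a sensor of left-handed nucleic acids (ENSMUSG00000027514, chromosome 2, 173206612 to 173218923, - strand), had normalized counts of 6.66, 2.08, 2.82 and 4.48 in BMAL1 replicates 1 to 4 and 298, 124, 113 and 131 in CHREBP (log2 fold change 5.41, SE 0.57, DESeq2 *Padj* = 3.94e-19). *Dhx58*, also known as LGP2, a relative of RIG-I (ENSMUSG00000017830, chromosome 11, 100694884 to 100704271, - strand), had 6.66, 12.5, 14.1 and 15.2 in BMAL1 replicates 1 to 4 and 606, 329, 254 and 372 in CHREBP (log2 fold change 4.98, SE 0.39, DESeq2 *Padj* = 2.37e-34). In both genes the lowest CHREBP library stood above the highest BMAL1 library. *Ifi203* and *Ifi204*, DNA sensors of the Ifi200 cluster on chromosome 1, had log2 fold changes of 3.84 and 3.83, with means that went from 109 to 1561 and from 111 to 1591 normalized counts. The sensors of double-stranded RNA *Ddx58* (RIG-I), *Ifih1* (MDA5), *Tlr3* and *Eif2ak2* (PKR) had log2 fold changes of 2.08, 2.77, 2.50 and 2.05 and were all called. The adaptors *Mavs* (-0.08), *Ticam1* (0.08) and *Sting1* (-0.66) had no call. The adaptor *Myd88* was called higher, with log2 fold changes of 0.70 to 1.07 over the fits without 1 library. *Ddx60*, a helicase related to RIG-I, had no count in any BMAL1 library and a mean of 24.9 in CHREBP.

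The OAS enzymes, which make an antiviral second messenger when they bind double-stranded RNA, showed the largest difference of the data. All 9 members of the list were higher, with a median of 5.07, and 7 or 8 of them were in each fit without 1 library. *Oas3* (ENSMUSG00000032661, chromosome 5, 120753098 to 120777661, - strand) had normalized counts of 0, 0, 0.939 and 0.897 in BMAL1 replicates 1 to 4 and 452, 184, 119 and 132 in CHREBP. It had 2 raw counts over the BMAL1 group and 901 over the CHREBP group, a ratio of 414 after scaling (95% counting interval 114 to 3425), and its fitted log2 fold change was 8.74 (SE 1.03, *Padj* = 3.13e-15). In CON *Oas3* ran from 0 to 26.6 and in BOTH from 244 to 686. *Oas1a* (ENSMUSG00000052776, chromosome 5, 120896256 to 120907521, - strand) had 12.0, 4.16, 5.63 and 1.79 in BMAL1 replicates 1 to 4 and 322, 228, 151 and 135 in CHREBP (log2 fold change 5.21, SE 0.55, DESeq2 *Padj* = 2.41e-19), and *Oasl2* (ENSMUSG00000029561, chromosome 5, 114896936 to 114912234, + strand) had 26.6, 18.7, 20.7 and 35.0 in BMAL1 replicates 1 to 4 and 1363, 781, 615 and 631 in CHREBP (log2 fold change 5.07, SE 0.37, DESeq2 *Padj* = 1.79e-40).

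Antiviral effectors of the IFIT, Mx, TRIM and IFITM kinds were higher in 28 of 32 tested members and lower in none, with a median log2 fold change of 4.49, or 3.77 with *Slfn8* and *Phf11b*, which had no count in BMAL1, set to a bound from 3 counts. *Ifit1*, which binds viral RNA that lacks a proper cap, was the most abundant of them by 3′-end counts, which do not scale with transcript length (ENSMUSG00000034459, chromosome 19, 34640871 to 34650009, + strand), with normalized counts of 450, 367, 478 and 561 in BMAL1 replicates 1 to 4 and 17191, 10761, 8642 and 10599 in CHREBP (log2 fold change 4.67, SE 0.26, DESeq2 *Padj* = 3.81e-69). That is 25.4-fold, with no overlap. *Rsad2*, the antiviral enzyme viperin (ENSMUSG00000020641, chromosome 12, 26442746 to 26456452, - strand), had 30.6, 18.7, 22.5 and 28.7 in BMAL1 replicates 1 to 4 and 2530, 1259, 978 and 848 in CHREBP (log2 fold change 5.81, SE 0.42, DESeq2 *Padj* = 8.29e-41). *Mx1*, a dynamin-like GTPase that blocks influenza viruses (ENSMUSG00000000386, chromosome 16, 97447035 to 97462907, - strand), had 7.99, 0, 1.88 and 7.18 in BMAL1 replicates 1 to 4 and 550, 284, 223 and 187 in CHREBP. *Trim30a* (ENSMUSG00000030921, chromosome 7, 104409025 to 104465193, - strand) had 6.66, 4.16, 7.51 and 14.4 in BMAL1 replicates 1 to 4 and 974, 571, 429 and 369 in CHREBP. In each of these genes CHREBP replicate 1 was the highest library. The groups did not overlap, which the rule for the large rises required of *Rsad2*, *Mx1* and *Trim30a*. The other large rises by the rule, with log2 fold changes between 5.66 and 5.90, were *Cmpk2* (13.1 ± 8.39 in BMAL1 and 773 ± 428 in CHREBP), a nucleotide kinase next to *Rsad2*, *Ifi44* (7.82 ± 2.3 in BMAL1 and 428 ± 205 in CHREBP), *Ifitm3* (6.78 ± 3.02 in BMAL1 and 366 ± 199 in CHREBP), which keeps virus particles from fusing with endosomes, and *Mx2* (13.5 ± 6.89 in BMAL1 and 697 ± 238 in CHREBP), all normalized counts as mean ± SD of 4 libraries. *Ifitm2* (0.03) and *Apobec3* (0.55) were tested and not called. Members of the OAS, IFIT, Mx, Ifi200, GBP, IRG, Apol9 and MHC class I families have near-identical copies and the counting of shared reads is not given in the sources used here, so the value of a single member is uncertain.

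Interferon-induced promoters are known to carry the interferon-stimulated response element (ISRE), to which a complex of STAT factors and IRF9 binds. Its core letters, GAAA, 2 bases of any kind and GAAA again, searched on both strands in the RefSeq promoter windows of GRCm38.p6 (250 bases before to 50 after a start), are in 1131 of 32851 windows (3.44%). The windows held an entry for 331 of the 422 higher genes, which is under 80%, so a share over the higher genes is void and is not given. The sequences below are the 150 bases before the start, 5′ to 3′ on the strand of the gene, with the core in capitals, which reads TTTC, 2 bases and TTTC where it lies on the other strand. Of the 10 largest rises 6 have a window and 4 of these hold the core, of the 10 largest falls 9 have a window and none holds it, and of the 10 largest rises outside the lists 8 have a window and 3 hold it. The 10 largest rises have windows for a smaller part than the 422 higher genes, so these counts are values and no comparison is drawn. The sequences shown were picked with the core in view. They are 3 of the 4 rises that hold it, the most abundant antiviral effector, the largest rise outside the lists and 1 large rise without the core: *Oas3* (chr5:120777660-120777809, - strand), *Trim30a* (chr7:104465194-104465343, - strand), *Rsad2* (chr12:26456453-26456602, - strand), *Ifit1* (chr19:34640739-34640888, + strand), *Apol9a* (chr15:77411081-77411230, - strand), and *Ifi44* (chr3:151749911-151750060, - strand).
Oas3: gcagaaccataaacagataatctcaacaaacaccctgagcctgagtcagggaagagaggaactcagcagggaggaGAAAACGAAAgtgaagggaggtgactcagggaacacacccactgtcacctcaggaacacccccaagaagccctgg
Trim30a: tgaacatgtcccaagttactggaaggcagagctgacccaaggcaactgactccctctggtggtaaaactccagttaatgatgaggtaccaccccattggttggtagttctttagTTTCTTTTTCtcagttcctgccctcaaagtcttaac
Rsad2: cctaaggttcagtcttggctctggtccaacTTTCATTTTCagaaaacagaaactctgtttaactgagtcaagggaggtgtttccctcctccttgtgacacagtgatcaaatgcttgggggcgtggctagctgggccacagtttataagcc
Ifit1: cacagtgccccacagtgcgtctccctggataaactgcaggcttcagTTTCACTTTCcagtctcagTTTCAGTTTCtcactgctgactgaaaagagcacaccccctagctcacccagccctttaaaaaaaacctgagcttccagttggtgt
Apol9a: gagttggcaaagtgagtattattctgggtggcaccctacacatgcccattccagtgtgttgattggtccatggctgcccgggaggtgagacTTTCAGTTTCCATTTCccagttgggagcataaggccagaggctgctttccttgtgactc
Ifi44: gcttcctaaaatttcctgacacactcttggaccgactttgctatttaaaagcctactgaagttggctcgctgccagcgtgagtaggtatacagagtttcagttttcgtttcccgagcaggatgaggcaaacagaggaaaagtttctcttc
By the RefSeq start of each gene, the match began 75 bases before the start in *Oas3*, 36 in *Trim30a* and 120 in *Rsad2*. *Ifit1* held a pair of matches, 104 and 85 bases before the start, and *Apol9a* held a pair that share letters, 59 and 53 bases before it. A match describes letters and was not tested as a binding site, and the lack of one in *Ifi44* says only that these letters are not in its window.

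All 7 tested members of the ISG15 system, which attaches the ubiquitin-like protein ISG15 to other proteins, were higher, with a median of 3.33. *Ube2l6*, the conjugating enzyme, went from 48.0 to 783 normalized counts on average (log2 fold change 4.02, SE 0.34, DESeq2 *Padj* = 5.77e-30), and the ligase *Herc6* from 33.5 to 338 (log2 fold change 3.33, SE 0.32, DESeq2 *Padj* = 1.23e-22). *Isg15* itself, whose means went from 1.23 to 34.2, was at 4.74 (SE 0.77, *Padj* = 5.78e-08). All 7 tested immunity-related GTPases, which attack the vacuoles of intracellular parasites, were higher as well, with a median of 3.89. *Iigp1* had normalized counts of 10.6, 0, 0 and 4.48 in BMAL1 replicates 1 to 4 and 528, 242, 183 and 146 in CHREBP (log2 fold change 6.22, SE 1.14, DESeq2 *Padj* = 3.18e-06). *Tgtp1* and *Igtp* had log2 fold changes of 4.51 and 3.89, and *Irgm1*, the most abundant of the family, had 1274, 1194, 1267 and 1444 in BMAL1 replicates 1 to 4 and 6172, 4217, 4194 and 4413 in CHREBP (log2 fold change 1.87, SE 0.16, DESeq2 *Padj* = 9.12e-31). Of 9 guanylate-binding proteins 8 were higher, with a median of 4.21, led among those with a mean of at least 50 by *Gbp7* (5.05), *Gbp2* (4.46) and *Gbp3* (4.45). The most abundant of these, *Gbp2* (ENSMUSG00000028270, chromosome 3, 142620602 to 142638008, + strand), had 35.9, 38.5, 28.2 and 35.0 in BMAL1 replicates 1 to 4 and 1146, 766, 637 and 476 in CHREBP. 

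Genes of MHC class I antigen presentation were higher in 18 of 22 tested members and lower in none, with a median of 1.34. The inducible proteasome subunits *Psmb8* and *Psmb9* and the peptide transporter *Tap1* had log2 fold changes of 4.62, 3.77 and 3.42. *B2m*, the light chain shared by all class I molecules and the most abundant gene of the list (ENSMUSG00000060802, chromosome 2, 122147686 to 122153083, + strand), had normalized counts of 13944, 12075, 12998 and 12210 in BMAL1 replicates 1 to 4 and 28498, 22113, 21997 and 22854 in CHREBP, a difference of 1.86-fold (log2 fold change 0.90, SE 0.08, DESeq2 *Padj* = 1.64e-29) with no overlap. The chaperones *Canx* (0.04), *Calr* (0.02) and *Pdia3* (0.10) were not called. The antiviral PARPs and their partners were higher in 8 of 9 members, with a median of 1.90, and *Parp14*, *Parp12* and *Parp9* had log2 fold changes of 3.53, 2.99 and 2.66. *Zc3hav1*, the antiviral protein ZAP and the most abundant of them in CHREBP, went from 543 to 1370 (log2 fold change 1.33, SE 0.09, DESeq2 *Padj* = 1.04e-42). *Parp1*, the DNA repair enzyme of the list, had 0.08 and was not called.

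Secreted signals of the interferon response were higher in all 8 tested members, with a median of 3.99. *Cxcl10*, a chemokine that attracts T cells (ENSMUSG00000034855, chromosome 5, 92346638 to 92348889, - strand), had normalized counts of 106, 107, 100 and 126 in BMAL1 replicates 1 to 4 and 7086, 3629, 3118 and 2365 in CHREBP (log2 fold change 5.20, SE 0.38, DESeq2 *Padj* = 2.83e-40), a 36.7-fold difference. Genes next to it, *Cxcl11* and *Cxcl9*, ligands of the same receptor, had log2 fold changes of 4.46 and 3.78. *Ccl5* (1.97), *Il15* (1.06), *Tnfsf10*, which encodes the death ligand TRAIL (5.04), and *Cd274*, which encodes PD-L1 (4.19), were also called, and the call of *Il15* was lost without BMAL1 replicate 1 or 4, or CHREBP replicate 1 (0.94 to 1.27).

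The lists of inflammation outside the interferon response differed in their share of calls. None of 19 tested NF-kB subunits and feedback genes was called, and their median was 0.05. Of 16 inflammatory chemokines and cytokines 4 were higher (25%, against 3.28% of all genes), with a median of 0.20, and 2 to 4 were higher without 1 library. They were *Csf1*, the growth factor of macrophages (772 ± 44.2 in BMAL1 and 1299 ± 102 in CHREBP, log2 fold change 0.75, SE 0.08, DESeq2 *Padj* = 6.33e-21), *Ccl20* (log2 fold change 0.32, SE 0.07, *Padj* = 0.000384), *Ccl2* (log2 fold change 0.28, SE 0.08, *Padj* = 0.00999) and *Ccl7* (log2 fold change 0.34, SE 0.12, *Padj* = 0.0907), and the groups of *Ccl7* overlapped. Its call was lost without BMAL1 replicate 2 or 4, or CHREBP replicate 1, 2 or 4, with log2 fold changes of 0.24 to 0.42 over the fits without 1 library, and in edgeR. That of *Ccl2* was lost without BMAL1 replicate 2 (0.22 to 0.34). Among 16 genes of pyroptosis, necroptosis and caspases 2 were higher (12.5%). *Mlkl*, which forms the pore of necroptosis, had 83.9, 95.8, 129 and 107 in BMAL1 replicates 1 to 4 and 360, 274, 236 and 220 in CHREBP (log2 fold change 1.38, SE 0.17, DESeq2 *Padj* = 7.28e-15). In the BCL2 family 1 of 13 members was called (7.69% higher), *Bid*, which links caspase-8 to the mitochondrion (log2 fold change 0.32, SE 0.08, *Padj* = 0.00357). Of 21 complement and acute phase genes 3 (14.3%) were higher and 1 (4.76%, against 1.30% of all genes) lower. *C4b* (0.77), *Cfb* (0.66) and *C2* (0.55) were higher, given as log2 fold changes. *Apcs*, a pentraxin, was lower (log2 fold change -0.44, SE 0.14, *Padj* = 0.0321), and its call was lost without BMAL1 replicate 1, or CHREBP replicate 1, 2 or 3 (-0.57 to -0.36). *Cfb* and *C2* are neighbours that both overlap the annotated gene *Gm20547*.

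**Figure D4:**
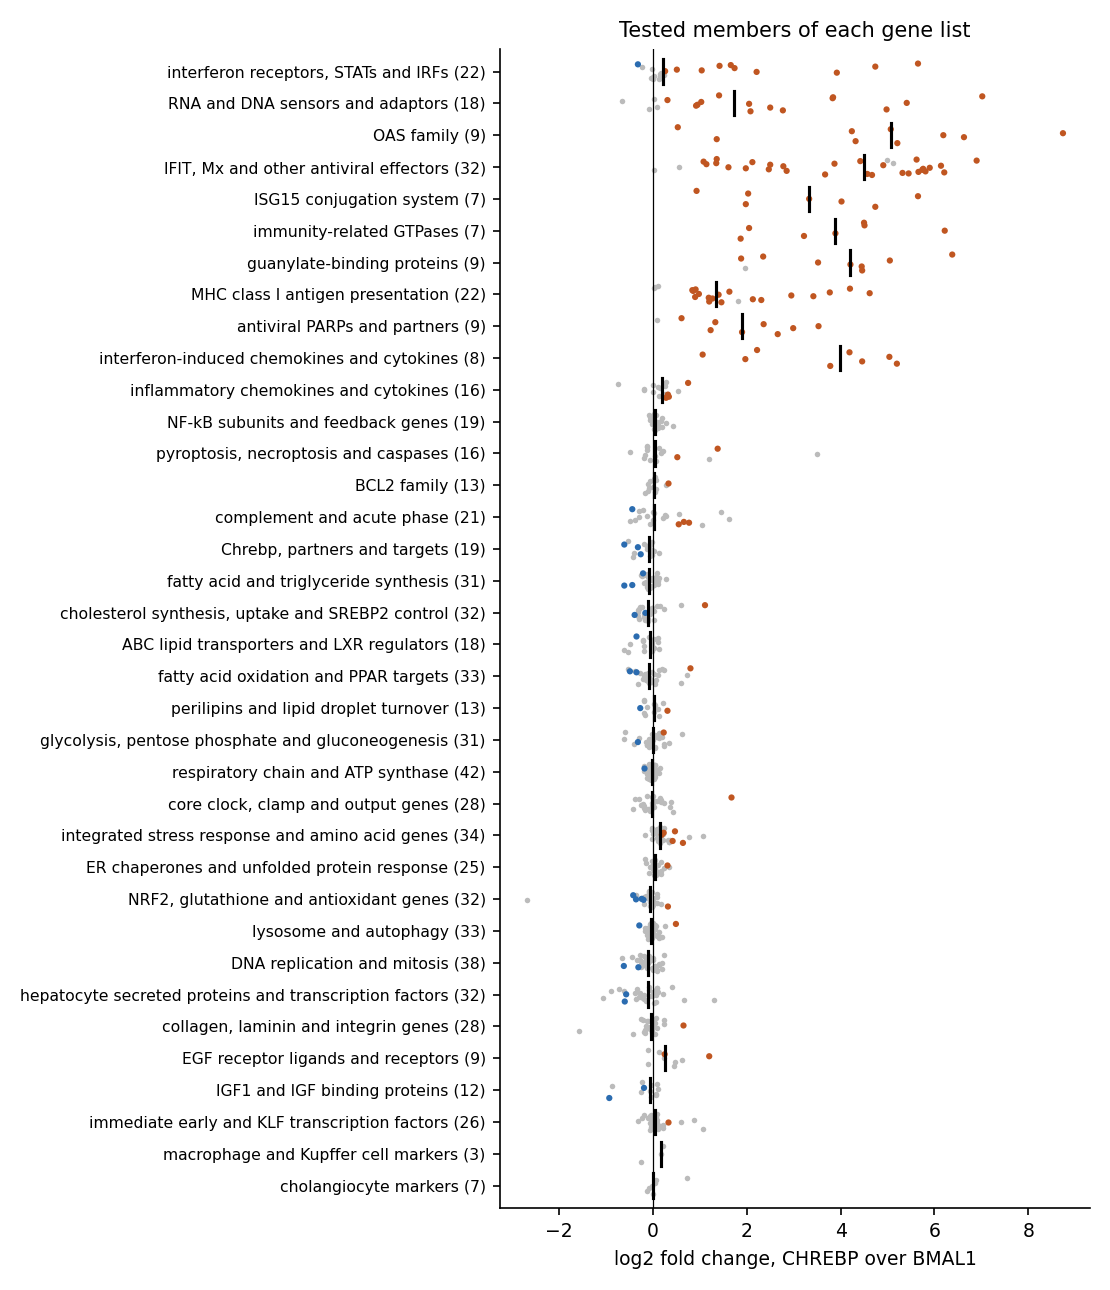
Log2 fold change of CHREBP over BMAL1 (x axis) for every tested member (points) of the lists with at least 3 tested members, with the number tested in brackets and the list median as a bar. Called members are orange where higher and blue where lower, and medians over 1 are seen in 9 interferon-response lists and in no other list.

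Genes outside the interferon lists accounted for 306 of the higher genes, of which 75 were at least 2-fold. By the rule for named genes, the 10 largest with a mean of at least 50 had log2 fold changes between 2.06 and 5.17. *Apol9a* (ENSMUSG00000057346, chromosome 15, 77403789 to 77411135, - strand) had normalized counts of 6.66, 6.25, 12.2 and 12.6 in BMAL1 replicates 1 to 4 and 575, 291, 221 and 292 in CHREBP (log2 fold change 5.17, SE 0.45, DESeq2 *Padj* = 1.80e-28), and its near copy *Apol9b* was at 4.38. These apolipoprotein L genes were followed by *Mndal* (4.34) and *Ifi202b* (3.56) of the Ifi200 cluster. *Ifi202b* had 289, 263, 319 and 361 in BMAL1 replicates 1 to 4 and 5650, 2932, 2844 and 3100 in CHREBP. *Tor3a* (3.55), a torsin ATPase of the endoplasmic reticulum, had 117, 97.8, 126 and 92.4 in BMAL1 replicates 1 to 4 and 1955, 1164, 1019 and 945 in CHREBP. *Rnf213* (2.82), a large ubiquitin ligase that coats intracellular bacteria and lipid droplets, had 473, 466, 535 and 610 in BMAL1 replicates 1 to 4 and 4564, 3974, 2827 and 3369 in CHREBP. The other genes were *Sftpd* (3.10), a collectin that binds microbes, *Hap1* (2.84), a partner of huntingtin, *Gm20559* (2.10) and *Helz2* (2.06), a helicase that acts as a coactivator of PPAR factors. The rule required that the groups of these 10 genes did not overlap. Some of these genes are known from interferon studies although the lists do not hold them. *Gm20559* and *Hap1* each overlap a predicted gene on the same strand.

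Most of the lipid genes that were called were lower in CHREBP, by less than 2-fold. In the list of *Chrebp*, its partners and its targets 3 of 19 tested members were lower and none was higher, against 1.30% and 3.28% of all genes, and the median was -0.09 with 17 of 19 values below 0. Without 1 library 1 to 3 were lower, with 1 without BMAL1 replicate 4 or CHREBP replicate 2. *Scd1*, a delta-9 desaturase that makes oleate from stearate (ENSMUSG00000037071, chromosome 19, 44394455 to 44407879, - strand), had normalized counts of 198, 188, 131 and 163 in BMAL1 replicates 1 to 4 and 105, 126, 104 and 107 in CHREBP (log2 fold change -0.61, SE 0.16, DESeq2 *Padj* = 0.00402). *Txnip*, a glucose-induced regulator of glucose uptake and a standard target of *Chrebp* (ENSMUSG00000038393, chromosome 3, 96557957 to 96561883, + strand), had 1729, 1959, 2053 and 2041 in BMAL1 replicates 1 to 4 and 1560, 1414, 1926 and 1610 in CHREBP (log2 fold change -0.26, SE 0.09, DESeq2 *Padj* = 0.0588). The groups of *Scd1* did not overlap, while 1 CHREBP library of *Txnip* lay within the BMAL1 range. The call of *Txnip* was lost without BMAL1 replicate 2, 3 or 4, or CHREBP replicate 1, 2 or 4 (-0.35 to -0.20), and with all 24 libraries in the fit (*Padj* = 0.152). Other targets were not called, with log2 fold changes of 0.12 for *Pklr*, -0.01 for *Klf10*, -0.06 for *Fasn*, -0.06 for *Acly*, -0.12 for *Acaca* and -0.20 for *Elovl6*.

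Fatty acid and triglyceride synthesis had 3 of 31 members lower (9.68%, against 1.30% of all genes) and none higher (against 3.28%). Beside *Scd1* these were *Scd2*, the desaturase that was most abundant in these cells (ENSMUSG00000025203, chromosome 19, 44293674 to 44306864, + strand), and *Acsl4*, which activates polyunsaturated fatty acids. *Scd2* had 7438, 7925, 7548 and 7453 in BMAL1 replicates 1 to 4 and 4918, 5930, 5852 and 5601 in CHREBP, with every CHREBP library below every BMAL1 library (log2 fold change -0.44, SE 0.06, DESeq2 *Padj* = 3.75e-11). *Acsl4* was at -0.21 (SE 0.07, *Padj* = 0.0487), and its call was lost without BMAL1 replicate 1, 2 or 3, or CHREBP replicate 1, 3 or 4 (-0.25 to -0.17), and with all 16 esiRNA libraries (*Padj* = 0.8) or all 24 libraries (*Padj* = 0.701) in the fit. Cholesterol genes had 2 of 32 members lower (6.25%) and 1 higher (3.12%, near the share of all genes, and 3 members without CHREBP replicate 2), with a median of -0.12 and 25 of 32 values below 0. *Tm7sf2* (log2 fold change -0.39, SE 0.11, *Padj* = 0.00821) and *Ebp* (log2 fold change -0.16, SE 0.05, *Padj* = 0.0841), which act late in sterol synthesis, were lower. The call of *Ebp* was lost in each of the 8 fits without 1 library (-0.17 to -0.14), and with all 16 esiRNA libraries in the fit both calls were lost (*Padj* = 0.149 for *Tm7sf2* and 0.137 for *Ebp*). *Soat1*, which esterifies cholesterol for storage (ENSMUSG00000026600, chromosome 1, 156424525 to 156474331, - strand), was higher at 220, 235, 216 and 203 in BMAL1 replicates 1 to 4 and 538, 504, 386 and 455 in CHREBP (log2 fold change 1.11, SE 0.12, DESeq2 *Padj* = 9.87e-20), with no overlap. Of 18 ABC transporters and LXR regulators 1 was called (5.56% lower, against 1.30% of all genes), *Apoe*, the ligand that carries lipoprotein remnants to their receptors (ENSMUSG00000002985, chromosome 7, 19696109 to 19699188, - strand), which had 3135, 2681, 2579 and 3179 in BMAL1 replicates 1 to 4 and 2242, 2093, 2297 and 2391 in CHREBP (log2 fold change -0.36, SE 0.07, DESeq2 *Padj* = 6.71e-05).

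Genes of fat use and storage had calls in both directions. In the list of fatty acid oxidation and PPAR targets 2 of 33 tested members were lower (6.06%), among them *Acot1*, a cytosolic thioesterase, and 1 was higher (3.03%, near the 3.28% of all genes), *Vnn1*, a pantetheinase (log2 fold change 0.80, SE 0.16, *Padj* = 5.82e-05). Without 1 library 1 to 3 were lower, with 1 without BMAL1 replicate 2 or 3, or CHREBP replicate 1. *Acot1* had 3246, 3027, 3127 and 3290 in BMAL1 replicates 1 to 4 and 2268, 2327, 2618 and 2713 in CHREBP (log2 fold change -0.35, SE 0.07, DESeq2 *Padj* = 4.95e-06). In lipid droplet turnover the inhibitor of the lipase ATGL, *G0s2*, was lower (log2 fold change -0.27, SE 0.08, *Padj* = 0.0315) and its activator, *Abhd5*, was higher (log2 fold change 0.31, SE 0.10, *Padj* = 0.069), each 7.69% of 13 tested, against 1.30% and 3.28% of all genes. The call of *G0s2* was lost without BMAL1 replicate 2 or 3, or CHREBP replicate 2 (-0.28 to -0.24) and that of *Abhd5* without BMAL1 replicate 2 or 4, or CHREBP replicate 1 or 3 (0.26 to 0.36). Glycolysis and gluconeogenesis had 1 member lower and 1, *Pck2*, higher of 31 (3.23% each, where the higher share is near the 3.28% of all genes and the lower background is 1.30%). The respiratory chain had 1 call among 42 (2.38% lower), *Cox7c* (log2 fold change -0.19, SE 0.07, *Padj* = 0.0912). The call of *Cox7c* was lost without BMAL1 replicate 1, 2, 3 or 4, or CHREBP replicate 2, 3 or 4 (-0.23 to -0.14). It was also lost with all 16 esiRNA libraries (*Padj* = 0.157) or all 24 libraries (*Padj* = 0.165) in the fit, with size factors from genes in no interferon list (*Padj* = 0.102) and in edgeR.

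**Figure D5:**
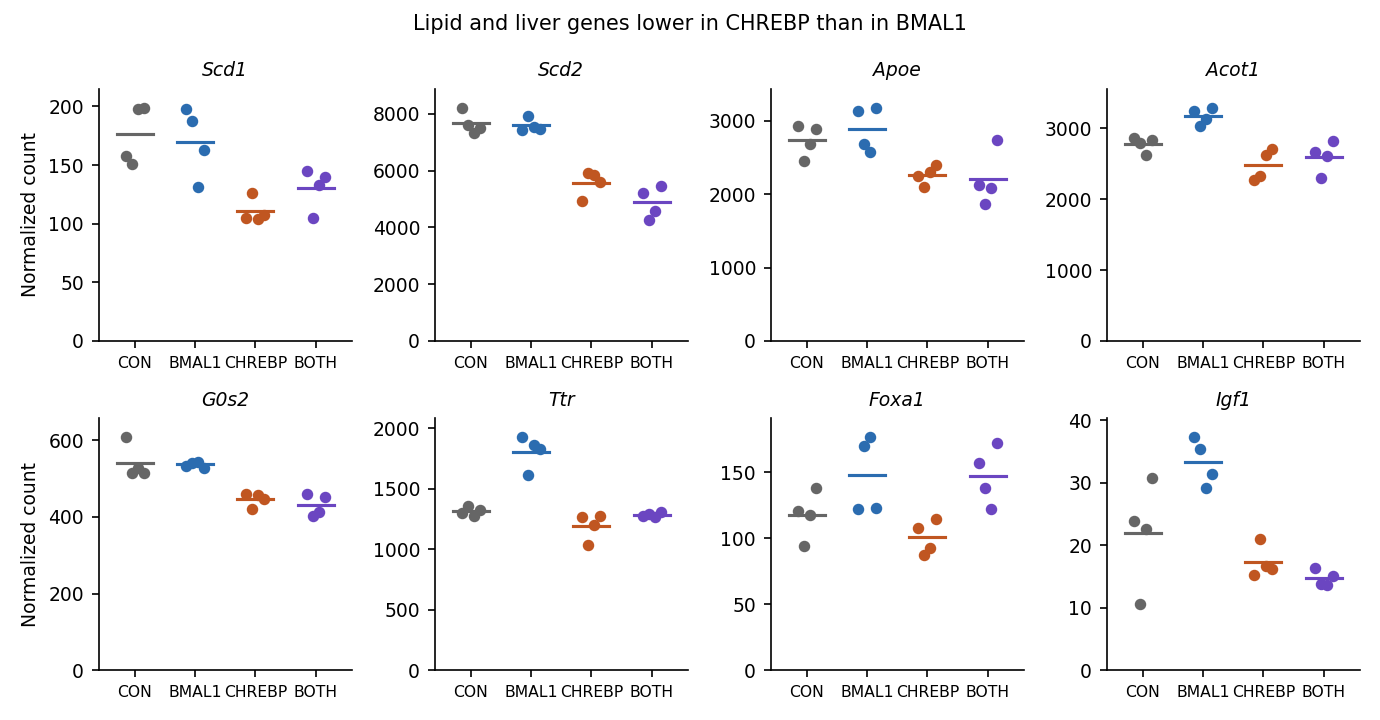
Normalized counts (y axes, each from 0) of 8 lipid and liver genes called lower in CHREBP than in BMAL1, in the 4 libraries (points) of CON, BMAL1, CHREBP and BOTH, with group means as lines. BMAL1 and CHREBP do not overlap in any of the 8 genes, a choice that leaves out called lower genes with overlap such as *Txnip*. In *Ttr* and *Acot1* all 4 BMAL1 libraries lie above the CON libraries as well. The calls of *G0s2*, *Foxa1* and *Igf1* were lost in some fits without 1 library.

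Of 28 tested members of the clock list 1 was called (3.57% higher, near the 3.28% of all genes), and the core clock genes were not. The called gene was *Nampt*, the rate-limiting enzyme of the NAD salvage pathway, a clock output in the liver and also induced in inflammation (ENSMUSG00000020572, chromosome 12, 32819545 to 32853349, + strand). It had normalized counts of 230, 229, 262 and 288 in BMAL1 replicates 1 to 4 and 1072, 756, 686 and 720 in CHREBP (log2 fold change 1.67, SE 0.13, DESeq2 *Padj* = 3.03e-37), and the other members had log2 fold changes between -0.42 and 0.43. *Nr1d1*, a direct target of *Bmal1*, had 26.6, 26.0, 37.6 and 37.7 in BMAL1 replicates 1 to 4 and 44.4, 21.0, 29.2 and 37.9 in CHREBP with overlapping groups, and *Dbp*, another, had a log2 fold change of -0.21. *Cry1* (-0.42), *Nr1d2* (0.36), *Per1* (-0.17) and *Per2* (-0.04) were not called either. With a standard error of 0.30 for *Nr1d1* (log2 0.03, 95% interval -0.57 to 0.62), differences within that interval are compatible with these values. The interval is not a limit of detection. *Gdap10* overlaps *Nampt* on the same strand.

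The stress genes that were called differed by less than 2-fold. The integrated stress response, which raises ATF4 target genes when translation initiation is blocked, had 5 of 34 members higher (14.7%, against 3.28% of all genes) and none lower, with a median of 0.15. This count ranged from 1, without BMAL1 replicate 2 or 4, to 10, without CHREBP replicate 2, and was 3 without BMAL1 replicate 3 or CHREBP replicate 1. *Atf3* had 515, 464, 398 and 557 in BMAL1 replicates 1 to 4 and 1005, 699, 650 and 654 in CHREBP (log2 fold change 0.64, SE 0.19, DESeq2 *Padj* = 0.0257), *Trib3* was at 0.42 (SE 0.12, *Padj* = 0.0191), *Ppp1r15a*, the phosphatase subunit that ends the response, at 0.47 (SE 0.16, *Padj* = 0.0726) with overlapping groups, *Pck2* at 0.23 (SE 0.07, *Padj* = 0.0248) and *Slc3a2* at 0.19 (SE 0.06, *Padj* = 0.05). Leaving out 1 library lost the call of *Atf3* without BMAL1 replicate 2 (0.47 to 0.71), of *Trib3* without BMAL1 replicate 4, or CHREBP replicate 1 (0.35 to 0.49), of *Ppp1r15a* without BMAL1 replicate 2 or 4, or CHREBP replicate 2, 3 or 4 (0.35 to 0.58), of *Pck2* without BMAL1 replicate 2, 3 or 4, or CHREBP replicate 3 (0.20 to 0.28) and of *Slc3a2* without BMAL1 replicate 2, 3 or 4, or CHREBP replicate 1 (0.14 to 0.22). Among 25 ER chaperone genes *Syvn1* was the only one called (log2 fold change 0.29, SE 0.08, *Padj* = 0.00471), a share of 4.0%, near that of all genes called higher. Antioxidant genes had 4 of 32 members lower (12.5%, against 1.30% of all genes), the glutathione transferases *Gsta4* (-0.36), *Mgst2* (-0.42), *Gstm1* (-0.24) and *Gsta3* (-0.20), and 1 higher (3.12%), *Keap1*, the inhibitor of NRF2 (log2 fold change 0.32, SE 0.09, *Padj* = 0.0237). The call of *Mgst2*, whose groups overlapped, was lost without BMAL1 replicate 1, 2 or 3, or CHREBP replicate 1, 2 or 3 (-0.51 to -0.33), that of *Gsta3* without BMAL1 replicate 1 or 3, or CHREBP replicate 2 or 3 (-0.23 to -0.14) and that of *Keap1* without BMAL1 replicate 2 or 4, or CHREBP replicate 1 (0.27 to 0.38). The lower count was 2 without BMAL1 replicate 1 or 3, or CHREBP replicate 2. With all 16 esiRNA libraries in the fit *Gsta3* (*Padj* = 0.112) and *Gstm1* (*Padj* = 0.136) lost their calls, and *Gstm1* also did with all 24 libraries (*Padj* = 0.249). In the lysosome and autophagy list the autophagy receptor *Optn* was higher (log2 fold change 0.49, SE 0.13, *Padj* = 0.00539) and the autophagy kinase *Ulk1* lower (log2 fold change -0.29, SE 0.08, *Padj* = 0.0157), each 3.03% of 33 tested, against 3.28% of all genes higher and 1.30% lower. DNA replication had *Rrm2* (log2 fold change -0.31, SE 0.09, *Padj* = 0.0199) and *Cdc6* (log2 fold change -0.62, SE 0.21, *Padj* = 0.083) lower of 38 (5.26%, against 1.30% of all genes), both with overlapping groups, and the calls were lost without BMAL1 replicate 3 or 4, or CHREBP replicate 1 or 3 (-0.38 to -0.27) and without BMAL1 replicate 2, 3 or 4, or CHREBP replicate 1, 2 or 4 (-0.73 to -0.47). The count was 0 without BMAL1 replicate 3 or 4, or CHREBP replicate 1. *Cdc6* was not called with all 16 esiRNA libraries (*Padj* = 0.16), all 24 libraries (*Padj* = 0.122) or no filter on low counts (*Padj* = 0.123) either.

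Among hepatocyte and growth factor genes there were calls in both directions. *Ttr*, the carrier of thyroid hormone and retinol made by the liver, had normalized counts of 1930, 1614, 1861 and 1831 in BMAL1 replicates 1 to 4 and 1264, 1032, 1199 and 1272 in CHREBP (log2 fold change -0.60, SE 0.08, DESeq2 *Padj* = 9.95e-13), and ran from 1272 to 1356 in CON. *Foxa1*, a pioneer factor of liver development (ENSMUSG00000035451, chromosome 12, 57540628 to 57546916, - strand), had 122, 170, 177 and 123 in BMAL1 replicates 1 to 4 and 108, 87.5, 92.6 and 115 in CHREBP (log2 fold change -0.57, SE 0.17, DESeq2 *Padj* = 0.0257), and its call was lost without BMAL1 replicate 2 or 3, or CHREBP replicate 2 or 3 (-0.65 to -0.46). These were the only calls among 32 tested secreted proteins and transcription factors of the hepatocyte, a share of 6.25% lower against 1.30% of all genes, and 1 to 3 were lower without 1 library. *Igf1*, the growth factor that the liver releases into the blood (ENSMUSG00000020053, chromosome 10, 87858265 to 87937042, + strand), had 37.3, 35.4, 29.1 and 31.4 in BMAL1 replicates 1 to 4 and 15.2, 21.0, 16.7 and 16.2 in CHREBP, each CHREBP library below each BMAL1 library (log2 fold change -0.93, SE 0.32, DESeq2 *Padj* = 0.0824). At these low counts its call was lost without BMAL1 replicate 1, 2, 3 or 4, or CHREBP replicate 1, 3 or 4 (-1.05 to -0.88). *Igfbp4*, a secreted binding protein of IGF, was at -0.19 (SE 0.05, *Padj* = 0.00963), and the 2 were 16.7% of 12 tested genes of the IGF system, against 1.30% of all genes lower. Of 9 tested ligands and receptors of the EGF family *Btc*, which encodes betacellulin, and *Nrg1*, which encodes neuregulin 1, were higher (22.2%, against 3.28% of all genes), and 1 to 3 were higher without 1 library. *Btc* had 41.3, 48.9, 48.8 and 57.4 in BMAL1 replicates 1 to 4 and 132, 115, 113 and 93.1 in CHREBP (log2 fold change 1.20, SE 0.20, DESeq2 *Padj* = 6.48e-08). *Nrg1* was at 0.25 (SE 0.08, *Padj* = 0.0383) and lost its call without BMAL1 replicate 1 or 2, or CHREBP replicate 1 or 4 (0.23 to 0.29). Of 28 collagen, laminin and integrin genes *Itga2*, a subunit of a collagen receptor, was the one called higher (log2 fold change 0.65, SE 0.19, *Padj* = 0.0162), a share of 3.57%, near that of all genes, and its call was lost without BMAL1 replicate 2, or CHREBP replicate 1 (0.53 to 0.78). The only call among 26 immediate early and KLF genes (3.85%, again near that of all genes) was *Myc*, a growth-promoting transcription factor, with 2359, 2376, 2332 and 2406 in BMAL1 replicates 1 to 4 and 3013, 2924, 2909 and 3038 in CHREBP (log2 fold change 0.33, SE 0.05, DESeq2 *Padj* = 1.18e-08).

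Further genes that the study's text names were examined. *Lbh*, a transcription cofactor of limb and heart development, had 177, 133, 134 and 121 in BMAL1 replicates 1 to 4 and 88.8, 108, 92.6 and 103 in CHREBP (log2 fold change -0.52, SE 0.16, DESeq2 *Padj* = 0.0394), with no overlap, and its call was lost without BMAL1 replicate 1, or CHREBP replicate 1 or 3 (-0.59 to -0.40), and with all 16 esiRNA libraries in the fit. *Abca1* (log2 fold change -0.54, SE 0.27, *Padj* = 0.371) and *Abca8b* (log2 fold change -0.20, SE 0.11, *Padj* = 0.513) had lower means in CHREBP, overlapping groups and no call. *Pklr* (log2 fold change 0.12, SE 0.11, *Padj* = 0.801) and *Klf10* (log2 fold change -0.01, SE 0.10, *Padj* = 0.992) were not called.

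The 10 largest falls by the rule were of modest size, with log2 fold changes between -0.90 and -0.62 and means between 50.9 and 118 normalized counts over the 8 libraries. *Slc5a3*, a carrier of myo-inositol, was first with 71.9, 80.1, 60.1 and 78.9 in BMAL1 replicates 1 to 4 and 22.8, 53.0, 30.0 and 49.8 in CHREBP (log2 fold change -0.90, SE 0.25, DESeq2 *Padj* = 0.0132). *Ypel1* had 144, 164, 152 and 124 in BMAL1 replicates 1 to 4 and 89.9, 96.8, 85.9 and 83.4 in CHREBP (log2 fold change -0.71, SE 0.16, DESeq2 *Padj* = 0.000364) and *Shf*, an adaptor protein, had 148, 126, 151 and 133 in BMAL1 replicates 1 to 4 and 80.2, 79.1, 109 and 93.1 in CHREBP (log2 fold change -0.62, SE 0.16, DESeq2 *Padj* = 0.00566). The other falls were in *Gas2l3* (-0.73), *Lrrc75a* (-0.70), *Adgrl3* (-0.70), *Nrarp* (-0.66), *Rflnb* (-0.64), *Agfg2* (-0.64) and *Maml3* (-0.63). Of these, *Nrarp* and *Maml3* act in Notch signalling. Only *Ypel1* and *Shf* of the 10 kept their call in every fit without 1 library. *Slc5a3* lost it without CHREBP replicate 1 or 3 (-1.10 to -0.72), *Gas2l3* without BMAL1 replicate 1, 3 or 4, or CHREBP replicate 1, 3 or 4 (-0.87 to -0.54), *Lrrc75a* without BMAL1 replicate 1, 2 or 3, or CHREBP replicate 1 or 2 (-0.82 to -0.53) and *Adgrl3* without BMAL1 replicate 2, 3 or 4, or CHREBP replicate 1 or 3 (-0.82 to -0.59). The call was also lost for *Nrarp* without BMAL1 replicate 1, 2 or 3, or CHREBP replicate 1, 2, 3 or 4 (-0.78 to -0.58), for *Maml3* without BMAL1 replicate 1, 2, 3 or 4, or CHREBP replicate 1, 3 or 4 (-0.74 to -0.54), for *Rflnb* without BMAL1 replicate 2, 3 or 4, or CHREBP replicate 1 or 4 (-0.73 to -0.55) and for *Agfg2* without BMAL1 replicate 1 or 3, or CHREBP replicate 1, 2 or 4 (-0.68 to -0.56). With all 16 esiRNA libraries in the fit *Gas2l3*, *Nrarp*, *Maml3* and *Rflnb* lost theirs, as did *Gas2l3* (*Padj* = 0.114) and *Maml3* (*Padj* = 0.102) with all 24 libraries, and *Gas2l3*, *Lrrc75a*, *Nrarp* and *Maml3* with no filter on low counts.

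Some of the genes named above overlap another protein-coding gene, and whether the counting used the strand is not given in the sources used here. On the same strand these are *Slc5a3* (with *Mrps6*), *Mndal* (with *Ifi203*), *Igtp* (with *Irgm2*) and *Tm7sf2* (with *Vps51*). On the other strand they include *Irf7* (*Phrf1*), *Psmb9* (*Tap1*), *Parp9* (*Dtx3l*), *Cxcl10* and *Cxcl11* (*Art3*), *B2m* (*Patl2*), *Bid* (*Bcl2l13*), *G0s2* (*Lamb3*), *Ypel1* (*Ppil2*) and *Nr1d1* (*Thra*).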

How the data were processed

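RNA of 24 libraries of AML-12 cells (6 groups of 4) was measured by BRB-seq. The authors aligned reads to mm10 with STAR and deposited a table of raw gene counts, for which HTSeq and featureCounts are named. Tool versions, annotation release, strand setting and use of molecular identifiers are not given in the sources used here. Counting of shared or multiply mapped reads could split near-identical genes. The closing lines of the table that name no gene held 32.0% to 33.1% of the reads of the 8 libraries and were left out. A floor of 3 counts corresponds to 0.334 to 0.539 CPM in these libraries.

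Genes whose counts over the 8 libraries came to 25 or more in all were tested with DESeq2 1.42.0 in R 4.3.3 (Wald test, no covariate, Benjamini-Hochberg adjusted *Padj* under 0.1), and 12374 of them received an adjusted p. Normalized counts are counts divided by the size factors of the 8 libraries, and the other 16 libraries were put on the same scale. Single values were compared by an exact permutation test (2-sided, scipy 1.17.1 in Python 3.11.15). The 95% intervals are 1.96 standard errors where they belong to a fold change, and intervals from counts cover counting error only. A floor covers the counting error of the group without counts and not that of the other group. Gene positions and overlaps are from GENCODE M21 (GRCm38) and promoters from RefSeq (GRCm38.p6). The script was tested on simulated data, in which DESeq2 and edgeR both made a larger share of false calls than the threshold on the adjusted p allows and recovered small changes less often than large ones.

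The text names *Arntl* and *Mlxipl*, the 10 largest rises and 10 largest falls among called genes (mean normalized count from 50 up, groups apart), the 10 largest such rises outside the interferon lists, up to 3 called members of each of 40 gene lists, the most abundant member of each interferon list and 9 genes that the study names. Some genes that the rule names are not reported here. Members of lists named beyond this rule were chosen after their values were seen. The members and the lists were chosen with earlier results of these data known. Alternatives were edgeR 4.0.16, other normalizations, filters, thresholds and sets of libraries, the replicate number as a block, and leaving out each library in turn. BSA cells, without palmitate, were not compared here.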

Additional observations from a re-analysis of the deposited data

Results flagged for a closer look

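For each gene with printed values and for the list levels, the highest or lowest of the 4 libraries of a group was compared with the other 3 by Dixon's ratio of the gap to the range, at the 95% critical value. Of 184 groups examined 12 passed, where chance gives about 1 in 20, or about 9. CHREBP replicate 1 was the high library in 8 of the 12, and all 8 genes were higher in CHREBP. It had 1005 normalized counts of *Atf3* (others 650 to 699), 28498 of *B2m* (21997 to 22854), 1451 of *Csf1* (1234 to 1255), 5650 of *Ifi202b* (2844 to 3100), 734 of *Ifi44* (294 to 344), 6172 of *Irgm1* (4194 to 4413), 1238 of *Ube2l6* (613 to 656) and 298 of *Zbp1* (113 to 131). In each of these genes the other CHREBP libraries also lay above all BMAL1 libraries, which the rule for the large rises required of *Ifi202b* and *Ifi44*.

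The other 4 were spread over other libraries. BMAL1 replicate 2 had 17.7 normalized counts of *Irf7* (others 63.8 to 72.6) and BMAL1 replicate 1 had 31.9 of *Abca1* (48.8 to 51.1). CHREBP replicate 2 had 126 of *Scd1* (104 to 107) and CHREBP replicate 4 had 638 of *Rrm2* (517 to 536).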

How the results depend on the processing

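The count of higher genes was between 403 and 434 with all 16 esiRNA or all 24 libraries in the fit, edgeR, TMM factors, size factors from genes in no interferon list, no filter on low counts or a summed count of at least 100, and the count of lower genes was between 127 and 175. The median of all genes stayed within 0.01 of 0 on the log2 scale under the other scalings. Of the calls, edgeR shared 413 higher and 159 lower genes. A *Padj* under 0.05 left 368 and 116, and a change of at least 2-fold left 178 and 8. Without 1 library there were 327 to 447 higher and 92 to 167 lower genes. For *Arntl* and *Mlxipl* these fits gave log2 fold changes of 0.30 to 0.57 and -0.57 to -0.26, none past the threshold. The 3 values that turned direction were all of *Klf10*, which was not called and ran from -0.08 to 0.05 in these fits, with 0.03 without BMAL1 replicate 1, 0.02 without BMAL1 replicate 2 and 0.05 without CHREBP replicate 1. The cause was not tested.

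Same-numbered libraries of the 2 groups did not deviate together (mean correlation -0.00062 over 9333 genes), so the numbers were not taken as pairs. With the replicate block 325 genes were higher and 62 lower, of which 323 and 61 were among the main calls, and *Arntl* and *Mlxipl* were at 0.44 and -0.43. Of the 109 named genes with a fitted value, 24 lost their call under the block, 11 with all 16 esiRNA libraries and 3 with edgeR (*Ccl7*, *Ebp* and *Cox7c*). Of 72 named higher genes 63 kept their call in every fit without 1 library, and of 32 named lower genes 11 did.

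At 5570803 to 8987732 counts per library, the targeted transcripts and the interferon genes had few counts. The design held 4 libraries a group from 1 experiment, and the targeted gene, the esiRNA sequence and the library position cannot be told apart.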

Other observations

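The genes given here, other than the macrophage markers, are in no list and were chosen after their values were seen, so they are given as values. *Adar*, which edits double-stranded RNA, went from 290 to 848 normalized counts on average (log2 fold change 1.54, SE 0.12, DESeq2 *Padj* = 4.06e-37). *Pnpt1*, which degrades RNA in the mitochondrion, went from 126 to 320 (log2 fold change 1.33, SE 0.15). *Samd9l*, an inhibitor of translation, went from 347 to 1447 (log2 fold change 2.06, SE 0.26), *Znfx1*, an RNA helicase, from 257 to 1029 (log2 fold change 2.00, SE 0.21) and *Daxx*, a histone chaperone, from 209 to 725 (log2 fold change 1.79, SE 0.24). The groups did not overlap in these 5 genes. *Mpeg1*, a pore-forming protein known from macrophages, had means of 3.52 in BMAL1 and 83.1 in CHREBP (log2 fold change 4.67, SE 0.68), and *Cybb*, a subunit of the phagocyte oxidase, had 37.4 and 125 (log2 fold change 1.75, SE 0.50). Of 9 macrophage markers *Adgre1*, *Clec4f*, *Marco* and *Vsig4* were at 0 in all 8 libraries. The other 5 had means of 554 in BMAL1 and 638 in CHREBP (*Cd14*), 11.5 and 13.0 (*Cd68*), 3.22 and 2.7 (*Csf1r*), 1.86 and 0.541 (*Lyz2*) and 0.828 and 2.07 (*Ptprc*). Only *Cd14* and *Cd68* had an adjusted p and neither was called, *Csf1r* was fitted (log2 fold change -0.25) but too low for an adjusted p, *Lyz2* and *Ptprc* were below the filter on low counts, and their part in these values was not tested.

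Among abundant genes that were lower in CHREBP, *Dbi*, the acyl-CoA-binding protein, went from 5247 to 4267 normalized counts (log2 fold change -0.30, SE 0.05, DESeq2 *Padj* = 1.91e-08). The transcription factor genes *Onecut2* (log2 fold change -0.38, SE 0.09) and *Tead2* (log2 fold change -0.35, SE 0.07) and the ligand genes *Wnt4* (log2 fold change -0.36, SE 0.08) and *Kitl* (log2 fold change -0.47, SE 0.11) were lower as well, each with groups that did not overlap.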
